A study of Drosophila melanogaster with 42 samples.

Results

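Diet restriction (DR) and dSir2 overexpression were set against each other directly in flies of one cross at day 10, with no control arrays in the comparison and with the groups taken from the sample titles. DR flies were of the cross ELAV-GeneSwitch-dSir2EP2300 in the yw, w1118 background and were kept on low calorie food with diluent. The flies labelled sir2 overexpression (dSir2 below) were of the same cross and background, kept on normal, high calorie food with the inducer RU486. In this cross RU486 switches on a GAL4 driver that is restricted to neurons (ELAV-GeneSwitch), and the driver acts on an EP element at the dSir2 locus. RNA of whole females was hybridised, with females pooled for each sample, so that a level is an average over all tissues of many animals and fewer cells of a type cannot be told apart from less RNA per cell. Each group had 3 arrays, which the study describes as biological replicates. The comparison rests on 6 of the 42 arrays of the series, and diet, RU486 and induction of dSir2 differ together between the groups and cannot be told apart. Of 18769 probesets that are not controls, the 13647 that name 1 gene were used to name genes, and they cover 11982 genes. The 3 arrays of the same cross on high calorie food with diluent (control below) serve both conditions in the series. Their levels are given beside the others for reference only.

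Diet restriction lengthens life in flies and changes feeding, reproduction and nutrient storage together. Sirtuins are deacetylases that use NAD, and dSir2, the gene Sirt1 of the annotation, is the fly member closest to yeast Sir2. Nutrient supply reaches the fat body, gut, ovary and nervous system through insulin, TOR and hormone signals, so that whole-body RNA from fed and restricted females can differ in genes of many tissues.

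The gene labelled as overexpressed was looked at first. Sirt1 had log2 levels of 11.80, 11.63 and 11.65 in the dSir2 arrays, of 11.47, 11.55 and 11.57 in the DR arrays and of 11.99, 11.71 and 12.03 in the control arrays. The dSir2 levels lay above the DR levels without overlap, and they did not lie above the control levels. DR minus dSir2 was -0.16 (standard error 0.06, limma adjusted p = 0.119). The whole-body level of Sirt1 was thus not above that of the control arrays, and dSir2 is used throughout as the label of the arrays, in each direction given below. No 2 arrays held identical values. DR arrays correlated with one another at 0.9983 to 0.9988 over all probesets. Among the dSir2 arrays replicates 1 and 2 correlated at 0.9985, whereas replicate 3 stood apart from them at 0.994 and 0.9963, and counts without it are given below. Values ran from a floor of 2.11 to 16.2 on the log2 scale, and 48.1% to 48.8% of probesets lay under 2.5 in the 6 arrays.

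Genes higher in DR outnumbered genes lower in DR among those that passed the test. Of 9519 genes tested, 825 were higher in DR (8.67% of those tested) and 305 were lower (3.2%) (threshold of 0.05 for the adjusted p and 1.5 for the fold). At more than 2-fold the counts were 383 and 64, and at more than 4-fold 51 and 13. The 3 DR levels and the 3 dSir2 levels did not overlap in any of the 1158 called probesets. Without any threshold, 23.5% of genes had a probeset with DR above dSir2 and no overlap, and 25.8% had one with DR below. The median difference over the genes tested was 0.00 on the log2 scale, with quartiles of -0.23 and 0.23. The split of the calls depended on the scaling. When each array was centred on its median, 608 genes were higher and 1226 lower, because the array medians lay near the floor at 3 to 3.06 in DR and 2.81 to 2.84 in dSir2 and the centring moved every gene by -0.21. Quantile normalization of the 6 arrays again gave 618 higher and 457 lower, and centring on probesets with a mean level over 6, added after the data were seen, gave 991 and 268. The counts were 416 and 152 without DR replicate 1, 423 and 153 without DR replicate 2, 426 and 151 without dSir2 replicate 2, and 897 and 419 without dSir2 replicate 3.

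**Figure D1:**
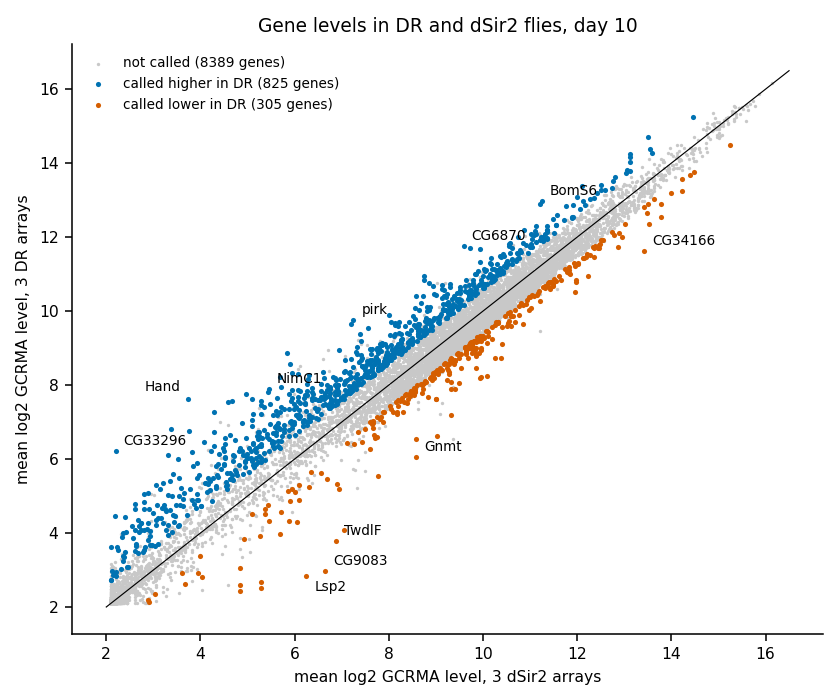
Mean log2 level of each of 9519 genes in the 3 dSir2 arrays (x axis) and the 3 DR arrays (y axis) at day 10. The line marks equal levels. The 825 genes called higher in DR reach 4.03 above the line on the log2 scale, and the 305 called lower reach 3.68 below it (CG9083).

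The largest differences with DR above dSir2 were in a gene with no role given here, a heart factor and a lectin. CG33296 had levels of 6.59, 6.28 and 5.82 in DR and of 2.22, 2.24 and 2.13 in dSir2, where all 3 arrays lay at the floor, so that the difference of 4.03 (standard error 0.21, adjusted p = 0.00336) depends on where the floor lies. Hand, a bHLH transcription factor of the heart and the blood-forming organ, had levels of 7.54, 7.84 and 7.50 in DR against 3.68, 4.13 and 3.37 in dSir2. Its control levels of 5.90, 6.6 and 6.62 lay between those of DR and dSir2, and DR minus dSir2 was 3.90 (standard error 0.23, adjusted p = 0.00349). The C-type lectin gene lectin-33A was higher in DR by 3.44, with DR levels of 6.50 to 7.12 and dSir2 levels of 2.90 to 3.86. The other genes among the 15 with the largest differences were CG15533 (3.03), CG8093 (2.99), CG31221 (2.99), the noncoding alphagamma-element of a heat shock locus (2.95), rib (2.87), OtopLa (2.81), CG12643 (2.78), CG31259 (2.65), CG1674 (2.56), pirk (2.52), Tom (2.52) and Brd (2.47). For CG1674 the called probeset was not its brightest, which differed by 1.36. OtopLa encodes a proton channel of the otopetrin family, known for acid taste, and rib a BTB transcription factor of tracheal morphogenesis. Tom and Brd belong to the Bearded family, small proteins that inhibit Neuralized in Notch signalling. In dSir2 replicate 3 CG31221 stood at 5.64, between its DR levels of 7.03 to 7.49 and the levels of 3.44 and 3.77 in the other dSir2 arrays. Brd passed narrowly (adjusted p = 0.0479), with dSir2 replicate 1 at 4.68 above the 2.87 and 3.01 of the other dSir2 arrays, and it was not called after quantile normalization. The calls of Hand, NimC1, PPO1, pirk, CG8997, Lsp2, Gnmt, PCNA, Cyp4d14 and GstE3 held under all 3 scalings and without each of 6 arrays. Those of CG31221, Brd, Act88F, Clk, per, Osi15, TwdlF and Cda4 were lost without at least 1 array. So were those of rib, Tom, CG8093, CG1674, the alphagamma-element, CG43085, CG9411, TotC and further named genes.

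Genes of blood cells were higher in DR. Of 13 hemocyte genes tested, 9 were higher and none was lower, with a median difference of 0.83 against 0.00 over all genes tested, and with each array centred on its median 8 were higher. NimC1, a phagocytosis receptor of plasmatocytes, had levels of 8.06, 7.76 and 7.87 in DR, of 5.42, 5.67 and 5.29 in dSir2 and of 5.90, 6.30 and 6.72 in control arrays. The DR levels stood above all others, the dSir2 levels lay below the control levels, and DR minus dSir2 was 2.44 (standard error 0.13, adjusted p = 0.00336). PPO1, a prophenoloxidase of crystal cells that starts melanisation, had levels of 5.17, 5.46 and 5.29 in DR and of 3.10, 2.85 and 3.20 in dSir2 (difference 2.26, standard error 0.12, adjusted p = 0.00336). The scavenger receptor gene Sr-CI differed by 1.65, and eater, another phagocytosis receptor, differed by 1.56 from dSir2 levels of 2.27 to 2.38 at the floor. Hml, PPO2, crq, Pxn and Col4a1, the other called members, differed by 0.66 to 1.15. The members not called were vkg, at 0.30, and NimC2, He and PPO3, which lay at the floor in both groups. The median log2 level over the list on each array was 7.42 to 7.90 in DR, 5.83 to 5.99 in dSir2 and 6.14 to 6.46 in control arrays.

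Some immune peptide genes were higher in DR as well. Of 22 antimicrobial and immune peptide genes tested, 8 were higher in DR and none was lower, with a median of 0.76, and 7 were higher with centred arrays. BomS6, a short Bomanin peptide of the Toll response, had levels of 12.87, 12.95 and 13.13 in DR and of 11.54, 11.34 and 10.89 in dSir2 (difference 1.73, standard error 0.19, adjusted p = 0.00891). Listericin, a peptide known for activity against Listeria, differed by 1.56 with DR levels of 10.54 to 10.98 and dSir2 levels of 8.76 to 9.51. The Bomanin genes BomS5 and BomT2 differed by 1.42 and 1.21. DptB, chosen here after its values were seen, had DR levels of 8.56, 10.13 and 7.46 and dSir2 levels of 6.69, 6.67 and 6.47. Its arrays did not overlap, yet the difference of 2.10 did not pass (adjusted p = 0.106), and the DR arrays spread more widely than the dSir2 arrays. The gene pirk, one of the 15 with the largest differences, which restrains the IMD pathway, had levels of 9.91, 9.88 and 9.52 in DR against 7.46, 7.4 and 6.89 in dSir2 and 7.36, 7.38 and 7.34 in control arrays. The dSir2 and control levels of pirk overlapped, while DR stood apart. PGRP-LB, an amidase that degrades peptidoglycan, was higher in DR by 1.2, and PGRP-LF, which damps IMD signalling, by 0.89, the called genes among the 6 peptidoglycan recognition genes tested. PGRP-LF was not called after quantile normalization.

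**Figure D2:**
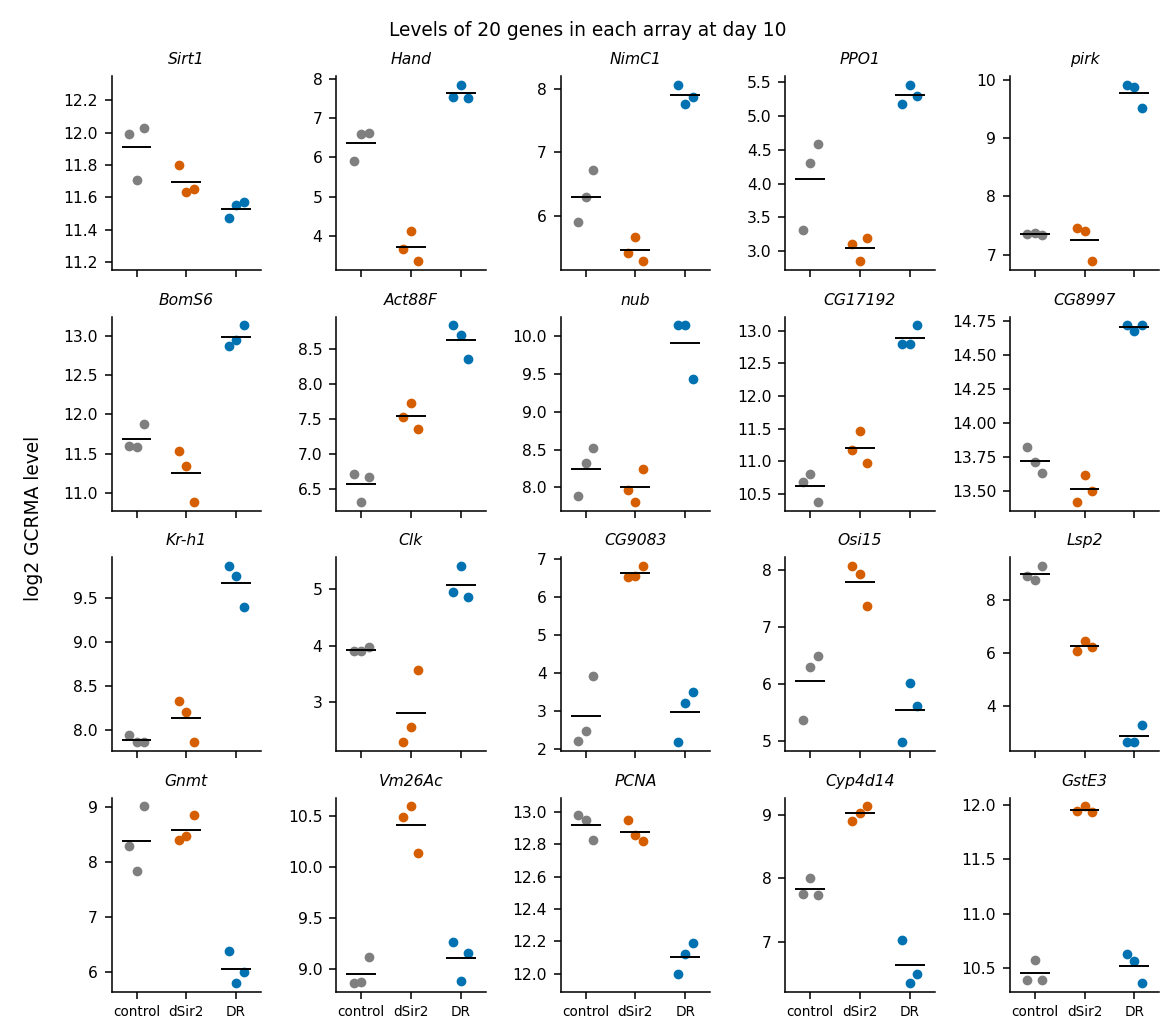
Log2 levels of 20 genes in each of the 3 control, 3 dSir2 and 3 DR arrays at day 10. Each point is an array, each bar the mean of a group, and the y axes differ between panels. Sirt1 is lowest in DR, NimC1 and pirk stand apart in DR, and CG9083 and GstE3 stand apart in dSir2.

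Muscle, nerve and eye genes were more often higher than lower in DR. Of 20 muscle genes 10 were higher and none was lower, with a median of 0.72, and 6 were higher with centred arrays. Act88F, the actin of the indirect flight muscles, had levels of 8.84, 8.70 and 8.36 in DR, of 7.52, 7.73 and 7.35 in dSir2 and of 6.71, 6.31 and 6.67 in control arrays. The 3 groups did not overlap, dSir2 lay between the others, and DR minus dSir2 was 1.10 (standard error 0.17, adjusted p = 0.0159). Act87E, another muscle actin, and TpnC4, the troponin C of flight muscle, each differed by 0.98, and the Z-disc gene Zasp66 by 0.85. The titin-like gene sls, outside the rule for named genes, differed by 1.24 with an adjusted p of 0.306, since its dSir2 levels ran from 6.06 to 8.80 and replicate 3 was the highest.

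Of 20 neuronal genes 8 were higher in DR and none was lower, with a median of 0.36, and 8 were higher with centred arrays. The calcium channel gene cac had levels of 6.72, 6.48 and 6.36 in DR and of 4.38, 4.65 and 5.17 in dSir2 (difference 1.79, standard error 0.24, adjusted p = 0.0122). The RNA-binding gene fne of the ELAV family differed by 1.56. Vmat, the vesicular monoamine transporter, and Sh, a potassium channel, differed by 2.19 and 2.04, both through a probeset that was not the brightest of the gene, and their brightest probesets differed by 0.27 and 0.9 and were not called. Several neuronal genes could not be compared, since brp, para and nAChRalpha1, chosen after their values were seen, lay at the floor in both groups. The gene elav, also outside the rule, marks the neurons in which the driver is active. It differed by 1.45 (standard error 0.34, adjusted p = 0.042), with dSir2 replicate 3 at 5.40 and the lowest DR array at 5.92. Without dSir2 replicate 3 the neuronal counts were 9 higher and 1 lower.

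Of 13 photoreceptor genes 5 were higher in DR and none was lower, with a median of 0.39. The rhodopsin phosphatase gene rdgC had levels of 6.46, 6.64 and 6.56 in DR against 5.62, 4.84 and 5.19 in dSir2 (difference 1.33, adjusted p = 0.0188). The eye-specific protein kinase C gene inaC differed by 0.83. The lipid transfer gene rdgB was called through a second probeset at 1.98, and its brightest probeset differed by -0.12, so that the probesets of this gene disagree. The diacylglycerol kinase gene rdgA was also called through a second probeset, at 1.09 from dSir2 levels of 2.36 to 2.46 at the floor, and its brightest one differed by 0.43.

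Some digestive peptidase and lipase genes were higher in DR. Of 26 Jonah and trypsin-type peptidase genes 8 were higher and 1 was lower, with a median of 0.51. Jon65Ai had levels of 12 to 12.14 in DR and of 10.86 to 11.2 in dSir2 (difference 1.08, standard error 0.10, adjusted p = 0.00702). Ser8 (1.52), Jon44E (1.07) and Ser6 (1.05) were higher too, and Jon25Biii, outside the rule, was lower by 0.82. Ser8 passed narrowly (limma adjusted p = 0.0462) and was not called after quantile normalization. The calls of Ser8, Jon44E and Ser6 were each lost when some single array was left out. Peptidases of these families are close paralogs, and a probeset may measure more than 1 of them. Among 9 lipase genes 4 were higher in DR and none was lower, with a median of 0.14, or -0.07 with centred arrays. CG17192 had levels of 12.79, 12.79 and 13.08 in DR against 11.18, 11.47 and 10.98 in dSir2 (difference 1.68, standard error 0.16, adjusted p = 0.00686). CG8093, CG6283 (1.72) and CG6295 (0.68) completed the called lipases, and CG6295 was not called with centred arrays. Of 12 midgut genes 3 were higher. The POU factor gene nub had levels of 10.14, 10.14 and 9.43 in DR against 7.97, 7.81 and 8.24 in dSir2 (difference 1.90). GATAe, the GATA factor of the endoderm, differed by 1.29, and AstC, an allatostatin peptide of neurons and gut endocrine cells, by 1.23.

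Members of the takeout family, secreted proteins with a fold that binds hydrophobic ligands such as juvenile hormone, parted in direction. Of 19 tested, 8 were higher in DR and 2 were lower, with a median of 0.43, and 7 and 3 with centred arrays. CG8997 had levels of 14.72, 14.68 and 14.72 in DR and of 13.42, 13.62 and 13.50 in dSir2, with control levels of 13.63 to 13.82. The dSir2 and control levels of CG8997 nearly met, DR stood above both, and DR minus dSir2 was 1.19 (standard error 0.06, adjusted p = 0.00317). CG7953 differed by 1.14 and Jhbp7 by 1.45. In the opposite direction, Jhbp2 had levels of 6.85, 6.41 and 6.4 in DR, of 8.78, 8.6 and 8.33 in dSir2 and of 5.74 to 5.92 in control arrays. Jhbp2 was thus highest in dSir2, and DR minus dSir2 was -2.02 (standard error 0.18, adjusted p = 0.00642). The gene takeout itself has no probeset here that names it alone.

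Of 12 genes of juvenile hormone synthesis, breakdown and response, 3 were higher in DR and none was lower, with a median of 0.71. Kr-h1, a transcription factor induced by juvenile hormone, had levels of 9.86, 9.74 and 9.39 in DR against 8.33, 8.20 and 7.86 in dSir2 (difference 1.54, standard error 0.18, adjusted p = 0.0102). Jhedup, related to juvenile hormone esterase, differed by 1.51. The receptor genes Met and gce, outside the rule for named genes, were not called at 0.80 and 0.63. For Met, dSir2 replicate 3 stood at 5.46, far above the 3.77 and 3.56 of the other dSir2 arrays.

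The circadian clock held differences in both directions among 12 genes tested, with 3 higher and 1 lower. Clk, the activator of the clock, had levels of 4.94, 5.40 and 4.85 in DR against 2.30, 2.57 and 3.57 in dSir2 and 3.90 to 3.97 in control arrays (difference 2.25, adjusted p = 0.0216). The lowest dSir2 levels of Clk lay at or near the floor, so that the size of its difference depends on where the floor lies. The repressor genes cwo and vri differed by 1.08 and 0.90. In contrast, per, a repressor that Clk drives, was lower in DR, with levels of 5.10, 4.88 and 4.58 against 6.17, 5.67 and 5.88 in dSir2 and 3.70 to 4.10 in control arrays (difference -1.05, adjusted p = 0.0247). Its partner tim, outside the rule, differed by -0.25.

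Other lists held a few genes higher in DR. Of 32 odorant-binding protein genes 6 were higher and 2 were lower (18.8% and 6.25%, against 8.67% and 3.2% over all genes tested). Obp57a and Obp57b, neighbours expressed in taste organs, differed by 1.25 and 1.22, Obp69a by 1.61 and Obp56e by 1.09. Of 15 insulin signalling genes 2 were higher (13.3%, against 8.67% over all genes tested). S6k, the kinase downstream of TOR, had levels of 11.30, 11.01 and 10.94 in DR against 9.98, 10.21 and 9.93 in dSir2 (difference 1.04, standard error 0.13, adjusted p = 0.0111). Akt differed by 0.65 and was not called with centred arrays. The receptor gene InR, chosen after its values were seen, differed by 1.2 with an adjusted p of 0.0588. Of 9 sirtuin and histone deacetylase genes HDAC4, a class IIa deacetylase, was higher by 1.44, while none of the 5 sirtuin genes was called. HDAC4 had levels of 4.72, 5.15 and 5.37 in DR against 3.61, 3.63 and 3.68 in dSir2. Alone it is 11.1% of the list, near the 8.67% over all genes tested. Of 22 fat synthesis, storage and mobilisation genes FASN3 (0.73) and Desat1 (0.70) were higher, a share of 9.09% near the 8.67% over all genes tested. With centred arrays none was higher and 3 were lower. In glycolysis the aldolase gene Ald1 (0.82) was the called one of 20 genes. Of 16 heat shock and chaperone genes 4 were higher and 2 were lower, among which Hsc70-2 (1.38), Hsc70-1 (0.96) and the cochaperone gene stv (0.83) were higher and Hsp26 was lower by 0.73. The metallothionein genes moved apart as well. MtnA had levels of 13.94 to 14.38 in DR against 12.99 to 13.21 in dSir2 (difference 1.05), and MtnB had levels of 5.90 to 6.63 against 7.38 to 7.99 (difference -1.33). In the same list the peroxiredoxin gene Prx6c (0.97) and the immune catalase gene Irc (0.66) were higher.

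The genes lowest in DR against dSir2 included a block of cuticle genes. Of 14 Osiris genes tested, a cluster of insect genes expressed in cells that make cuticle, 5 were lower in DR and none was higher, with a median of -0.66, and 7 were lower with centred arrays. Osi15 had levels of 4.97, 6.02 and 5.6 in DR, of 8.07, 7.92 and 7.36 in dSir2 and of 5.37, 6.30 and 6.49 in control arrays. The dSir2 arrays stood apart, DR and control overlapped, and DR minus dSir2 was -2.25 (standard error 0.35, adjusted p = 0.0167). Osi9, Osi20 and Osi19 differed by -2.78, -2.42 and -1.76 and Osi18, outside the rule, by -0.77, and Osi9, Osi18 and Osi20 lay at or near the floor in DR and control arrays. Of 68 structural cuticle protein genes 4 were lower and 2 were higher (5.88% and 2.94%, against 3.2% and 8.67% over all genes tested). TwdlF, a Tweedle cuticle protein gene, had levels of 2.38, 4.97 and 4 in DR against 7.30, 6.67 and 6.66 in dSir2 (difference -3.10, adjusted p = 0.0427). TwdlG and TwdlY differed by -1.77 and -1.21, and Cpr66D was higher in DR by 1.69. The calls of Osi9, Osi15, Osi19, Osi20, TwdlF, TwdlG, TwdlY and Cpr66D were each lost when some single array was left out. CG9083, for which no role is given here, had levels of 2.17, 3.22 and 3.51 in DR, of 6.54, 6.57 and 6.83 in dSir2 and of 2.20, 2.46 and 3.91 in control arrays. With -3.68 it had the largest difference in this direction (standard error 0.39, adjusted p = 0.00804). The chitin deacetylase gene Cda4 differed by -2.62, with dSir2 levels spread from 4.23 to 6.13. CG9411 and CG43085 differed by -2.23 and -2.95.

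The same genes varied in arrays outside the comparison. In the DN-Dmp53 cross, labelled p53 knockdown and carrying, by the study's methods, a dominant-negative Dmp53 under the same neuronal driver, CG9083 had levels of 6.93 to 7.46 in control arrays without RU486 and of 2.14 or less in arrays with RU486. TwdlF stood at 7.51 to 8.41 and at the floor, and Osi15 at 8.39 to 9.07 and 3.99 to 4.41, in the same order of groups. In Canton-S control arrays Osi15 stood at 7.34, 6.87 and 5.46 and Osi9 at 4.47, 4.56 and 2.22. Among the Canton-S DR arrays replicate 2 was apart for CG9083 and for all Tweedle and Osiris genes plotted. Osi15 stood there at 8.45 against 3.83 and 5.91, and CG9083 at 5.2 against 2.12 and 2.15. These genes therefore differed between arrays of 1 group and between control groups of the same age, and what sets their level was not tested.

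**Figure D3:**
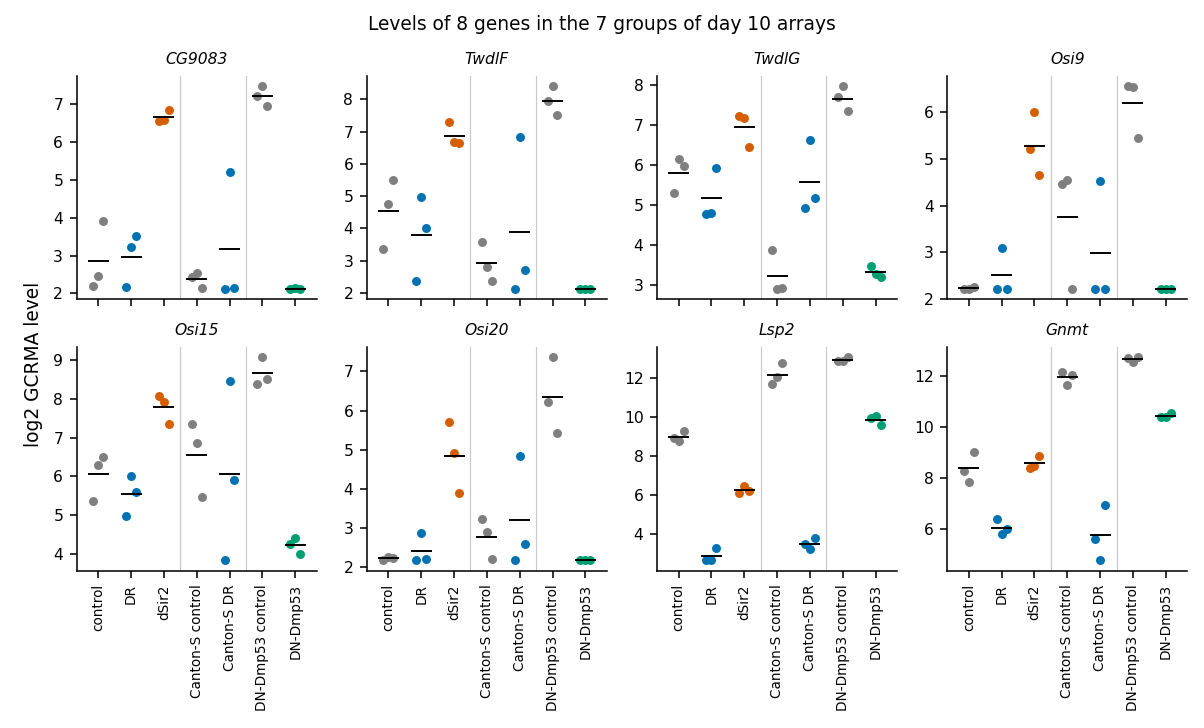
Log2 levels of CG9083, the Tweedle genes TwdlF and TwdlG, the Osiris genes Osi9, Osi15 and Osi20, Lsp2 and Gnmt in the 7 groups of 3 day 10 arrays. Points are arrays and bars are group means. CG9083 and the Tweedle and Osiris genes are high in dSir2 and in DN-Dmp53 control arrays and in 1 Canton-S DR array. Osi9 and Osi15 are also high in some Canton-S control arrays, and Lsp2 is lowest in both DR groups.

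Lsp2 and Gnmt were lower in DR than in dSir2, from different positions against the control. Lsp2, the larval serum protein that stores amino acids, had levels of 2.62, 2.63 and 3.28 in DR, of 6.08, 6.47 and 6.21 in dSir2 and of 8.92, 8.76 and 9.30 in control arrays. The 3 groups did not overlap, and DR minus dSir2 was -3.41 (standard error 0.23, adjusted p = 0.00434). Gnmt, the glycine N-methyltransferase that consumes S-adenosylmethionine, had levels of 6.38, 5.80 and 5.99 in DR against 8.39, 8.48 and 8.86 in dSir2. The control levels of Gnmt, 7.84 to 9.01, overlapped those of dSir2, and DR minus dSir2 was -2.52 (standard error 0.21, adjusted p = 0.00566). In the same list of 21 one-carbon and amino acid genes, Oat was lower by 0.67 and hgo, of tyrosine breakdown, was higher by 0.98. Of 12 maltase and amylase genes 2 were lower (16.7%, against 3.2% over all genes tested), Mal-A8 by 1.39 and Mal-A6 by 0.99. Neither was called without dSir2 replicate 1, 2 or 3, each left out in turn, nor without DR replicate 2. Mal-A6 was also lost without DR replicate 3. The sugar-responsive glucosidase gene tobi, chosen after its values were seen, had levels of 5.23, 6 and 8.35 in DR against 9.12, 9.49 and 9.48 in dSir2, and its difference of -2.84 did not pass (adjusted p = 0.0827). The stress peptide gene TotC was lower by 1.84, and CG34166, an abundant transcript with levels of 11.26 to 11.91 in DR and 13.28 to 13.63 in dSir2, was lower by 1.80.

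Genes of the eggshell were lower in DR than in dSir2. The median log2 level over the list on each array was 12.72 to 12.99 in DR, 13.41 to 13.78 in dSir2 and 12.55 to 12.74 in control arrays. Of 17 tested, 9 were lower and none was higher, with a median of -0.75, and 11 were lower with centred arrays. Vm26Ac, a vitelline membrane gene, had levels of 9.27, 8.89 and 9.16 in DR, of 10.49, 10.59 and 10.14 in dSir2 and of 8.87, 8.88 and 9.12 in control arrays. Here too dSir2 stood apart while DR and control overlapped, and DR minus dSir2 was -1.30 (standard error 0.17, adjusted p = 0.0114). The vitelline membrane genes psd and Vm32E differed by -1.18 and -1.16, and the chorion gene Cp7Fc by -1.15. For Cp7Fc the control levels of 11.21 to 11.88 lay above the DR levels of 10.62 to 10.93. Genes of the major chorion proteins, Cp15, Cp16, Cp18, Cp19, Cp36 and Cp38, named after their values were seen, differed by -0.47 to -0.07 and were not called. Among the 4 yolk genes the receptor gene yl was lower by 0.65, with DR levels of 12.32 to 12.38 and dSir2 levels of 12.95 to 13.11, and the yolk protein genes Yp1, Yp2 and Yp3 were not called at 0.00, -0.23 and -0.16. The Yp levels of 15.43 to 15.88 lie near the upper end of the scale. Among 37 germline and maternal genes 3 were higher and 1 was lower. These shares, 8.11% and 2.7%, lie near the 8.67% and 3.2% over all genes tested. The ligand gene grk, which sets the axes of the egg, was higher by 1.03, and fs(1)Ya, a maternal nuclear envelope gene, was lower by 0.75. The adducin gene hts and the translational repressor gene pum were called at 0.86 and 0.62 through a probeset that was not the brightest. Their brightest probesets differed by -0.01 and -0.25, and pum was not called with centred arrays.

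A few DNA replication genes were lower in DR. Of 21 tested, 3 were lower and none was higher, with a median of -0.40, and 12 were lower with centred arrays, where every gene moves by -0.21. PCNA, the sliding clamp of DNA polymerase, had levels of 12, 12.12 and 12.19 in DR, of 12.95, 12.86 and 12.82 in dSir2 and of 12.98, 12.95 and 12.83 in control arrays. The dSir2 and control levels of PCNA overlapped, DR lay below both, and DR minus dSir2 was -0.77 (standard error 0.06, adjusted p = 0.00559). Cdk2, the kinase of S phase entry, and PolA1, the polymerase that primes replication, differed by -0.91 and -0.80. Of 23 ribosome biogenesis genes Nop60B (-0.83) and Ns4 (-0.65) were lower and Nopp140 (0.61) was higher, the last not with centred arrays. These shares are 8.7% and 4.35%, against 3.2% and 8.67% over all genes tested.

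Detoxification genes were split. Of 74 cytochrome P450 genes 5 were higher in DR and 9 were lower, with a median of 0.01, and with centred arrays 4 and 16. The 5 and 9 are 6.76% and 12.2% of the list, against 8.67% and 3.2% over all genes tested. Cyp4d14 had levels of 7.03, 6.35 and 6.49 in DR, of 8.91, 9.04 and 9.14 in dSir2 and of 7.74 to 8 in control arrays (difference -2.41, standard error 0.20, adjusted p = 0.00568). Cyp6a8 had levels of 8.48 to 8.96 in DR against 10.04 to 10.59 in dSir2 and 9.06 to 9.31 in control arrays (difference -1.53). Cyp309a1 differed by -1.57. In Cyp9b2, outside the rule, the levels were 10.96, 10.96 and 10.97 in DR, 12.23, 12.27 and 12.21 in dSir2 and 10.15 to 10.58 in control arrays (difference -1.27, adjusted p = 0.000197). The opposite direction held for Cyp313a1, with levels of 9.48, 9.58 and 9.58 in DR against 7.66, 7.24 and 7.76 in dSir2 (difference 1.99, adjusted p = 0.00526).

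Conjugating enzymes showed the same mixture. GstE3, a glutathione S-transferase gene, had levels of 10.63, 10.56 and 10.36 in DR, of 11.95, 11.99 and 11.94 in dSir2 and of 10.39 to 10.57 in control arrays. The DR and control levels overlapped and dSir2 stood above them, with a difference of -1.45 (standard error 0.08, adjusted p = 0.00336). Its neighbour in the family, GstE2, was higher in DR by 1.39. Of 32 glutathione S-transferase genes these and GstD10 (0.61) were the called ones. The shares of 6.25% higher and 3.12% lower compare with 8.67% and 3.2% over all genes tested. Of 32 UDP-glycosyltransferase genes 5 were higher and 3 lower, a split that turned to 2 and 7 with centred arrays and 3 and 5 after quantile normalization. Ugt37A2 had levels of 8.65 to 8.85 in DR, of 10.21 to 10.48 in dSir2 and of 8.04 to 8.18 in control arrays (difference -1.64, adjusted p = 0.00374). Ugt35C1 differed by -1.04, Ugt303B1 by 1.55 and Ugt303A1 by 1.10, the last not called after quantile normalization.

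Several lists of housekeeping genes held hardly any calls. None of 31 cytosolic ribosomal protein genes and none of 62 oxidative phosphorylation genes was called by limma, with medians of -0.03 and -0.01, and with centred arrays 0 and 1 were. No tRNA synthetase gene of 29 was called, yet 25 had a difference below 0, as did 5115 of the 9519 genes tested. The tRNA synthetase median was -0.23, and 8 were lower with centred arrays. Of 69 mitochondrial ribosomal protein genes mRpL49 was lower (-0.61), 62 had a difference below 0, the median was -0.22, and 16 were lower with centred arrays. Of 28 proteasome subunit genes Prosbeta5 was lower (-0.60), 27 had a difference below 0, the median was -0.36, and 13 were lower with centred arrays. Neither mRpL49 nor Prosbeta5 was called when arrays were centred on probesets with a mean over 6. Of 38 translation factor genes eEF1alpha2, the elongation factor of nerve and muscle, was higher by 0.84. Among 23 ecdysone genes MsrA was lower by 0.94 and Hr39 higher by 0.59, through a probeset that was not the brightest (0.17 in that one) and neither with centred arrays nor after quantile normalization. Of 15 fat body genes Desat1 was higher and Lsp2 and Tsf1 (-0.67), the transferrin gene, were lower.

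Genes of male organs and of the spermatheca, a female organ, were checked. Of 22 genes of male organs named by a probeset, 5 passed the filter on low levels and bol alone was called, with levels of 7.55, 7.19 and 7.63 in DR, of 5.12, 4.78 and 5.93 in dSir2 and of 6.68 to 7.09 in control arrays. Of 9 spermatheca genes Gld was higher by 1.2, a share of 11.1% near the 8.67% over all genes tested. Send2, a spermathecal peptidase gene outside the rule, ran from 6.82 to 9.41 in DR, from 4.07 to 7.13 in dSir2 and from 3.31 to 3.92 in control arrays, and its DR and dSir2 arrays overlapped.

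**Figure D4:**
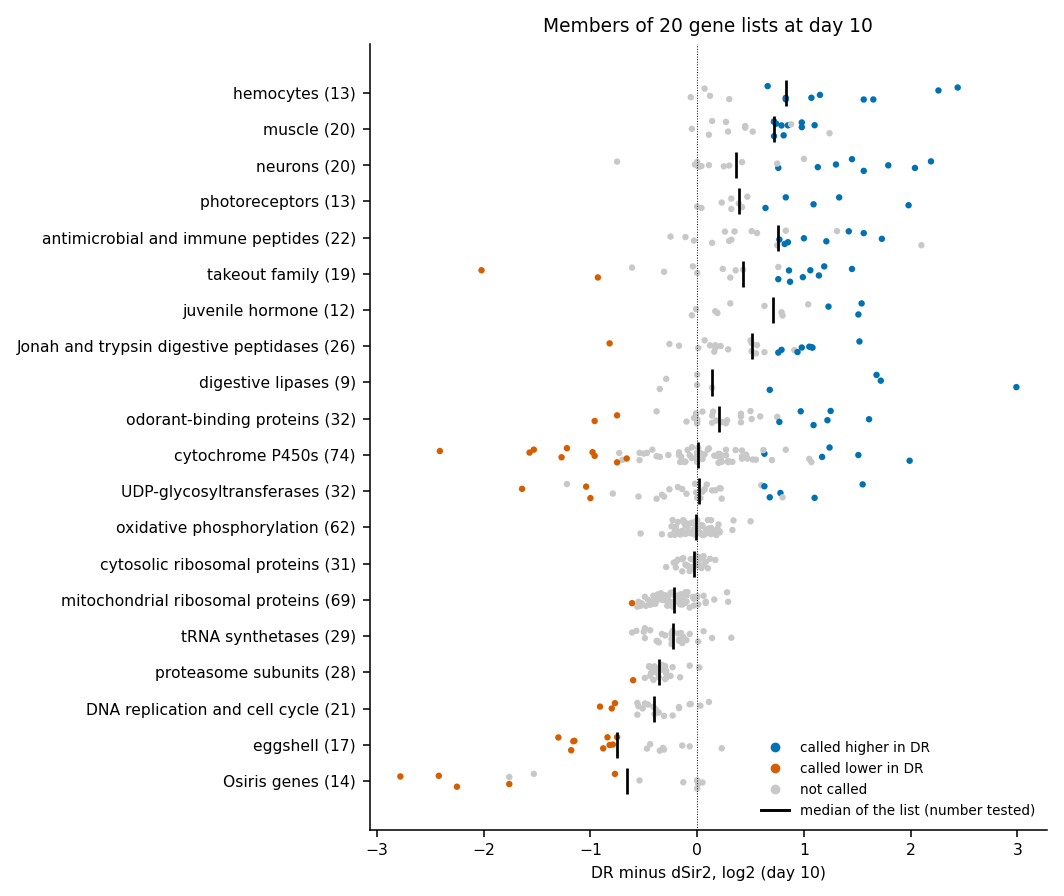
DR minus dSir2 (x axis, log2) for each tested member of 20 gene lists at day 10. Coloured points were called, in the called probeset, and black bars are list medians over the brightest probeset of each gene. Hemocytes (median 0.83), immune peptides (0.76) and muscle (0.72) lie to the right, and eggshell (-0.75) and Osiris genes (-0.66) to the left.

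Of 18 genes that the study names and that have a probeset of their own here, 3 were higher in DR and 1, Lsp2, was lower. CG6870, a cytochrome b5-like gene, had levels of 12.02, 11.64 and 11.66 in DR, of 9.59, 9.65 and 9.52 in dSir2 and of 8.76 to 9.02 in control arrays. The 3 groups did not overlap, and DR minus dSir2 was 2.19 (standard error 0.12, adjusted p = 0.00336). Nplp3, a neuropeptide-like precursor gene, had levels of 11.68 to 11.94 in DR against 10.35 to 10.73 in dSir2 and 8.78 to 9.18 in control arrays (difference 1.27, adjusted p = 0.0078). CG42249 differed by 0.96. Other genes of this set had nearly the same level in both conditions. CG10553 had levels of 9.53 to 9.67 in DR and 9.50 to 9.66 in dSir2 against 8.58 to 8.86 in control arrays, and Mipp1 had levels of 10.08 to 10.11 and 10.07 to 10.16 against 9.18 to 9.41. Their differences were 0.01 (standard error 0.06) and -0.04 (standard error 0.03). CG13928 and Syngr differed by -0.33 and 0.22, CG3091 by 0.28, CG14687 by 0.36, CG5612 by 0.57 and the activin-like ligand gene daw by 0.59, none of them called, although CG14687 and CG5612 passed in adjusted p (0.0469 and 0.0452) and missed the fold. The study chose several of these genes for a change in the same direction under several of its conditions, so that their likeness here is not independent of these arrays. The longevity genes Indy, mth and chico differed by 0.42, 0.18 and 0.19, and p53 and HDAC1 by -0.28 and -0.43, with no call. Indy passed in adjusted p (0.0088) and missed the fold.

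Called genes also lay side by side in the genome. In the gene order of the RefSeq annotation of assembly Release 6 plus ISO1 MT, 6 runs of 4 or more neighbouring genes with probesets tested here were called in 1 direction. Higher in DR were BomS2, BomT2, BomS5 and BomS6, and CG33307 with the takeout family genes CG8997, CG7916, CG7953 and CG7968. So were the tetraspanin genes Tsp42Eg, Tsp42Eh, Tsp42Ei and Tsp42Ej, and another run of CG31999, yellow-h, CG1674 and dpr7. Lower in DR were CG13998 with the eggshell genes Vm26Ac, Vm26Aa and psd, and the Osiris genes Osi15, Osi18, Osi19 and Osi20. CG33307 and CG13998 are not members of the lists used here. Neighbouring members of a family are paralogs whose probesets may share transcripts.

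At day 40 the same comparison gave 1 call. Of 9725 genes tested, CG8952 was higher in DR (0.0103% of those tested), with levels of 12.03 to 12.09 against 11.32 to 11.39 in dSir2 (difference 0.70, adjusted p = 0.015), and no gene (0.0%) was lower by limma. CG8952 was also higher at day 10, by 0.80 (adjusted p = 0.0125). At an unadjusted p under 0.05, 591 genes were higher and 784 lower at day 40, and the methods' t-test gave 66 and 9. The limma count depended on the fit, with 167 and 18 when all 14 groups shared 1 fit and 116 and 22 with weighted arrays. The day 40 arrays are separate from the day 10 arrays. DR arrays correlated with one another at 0.9933 to 0.9969 at day 40, against 0.9983 to 0.9988 at day 10. The dSir2 arrays did so at 0.9964 to 0.9985, against 0.994 to 0.9985 at day 10. The DR arrays thus agreed less well at day 40, and fewer calls do not by themselves show smaller differences. Of the 825 genes higher at day 10, 704 (85.3%) had a difference above 0 at day 40, against 45.3% of all genes tested at both ages. Their median was 0.91 at day 10 and 0.31 at day 40. Of the 305 lower genes 233 (76.4%) lay below 0 at day 40, against 54.1% of all genes, and their median was -0.72 at day 10 and -0.13 at day 40. Both sets were chosen by their day 10 differences, so that medians nearer to none at day 40 are favoured by the choice alone. For hemocyte genes the medians were 0.83 and 0.25, for muscle 0.72 and 0.40, for immune peptides 0.76 and 0.26, for eggshell genes -0.75 and -0.24 and for Osiris genes -0.66 and 0.43. Lsp2 kept its size, with -3.88 at day 40, and its day 40 difference did not pass (adjusted p = 0.207).

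**Figure D5:**
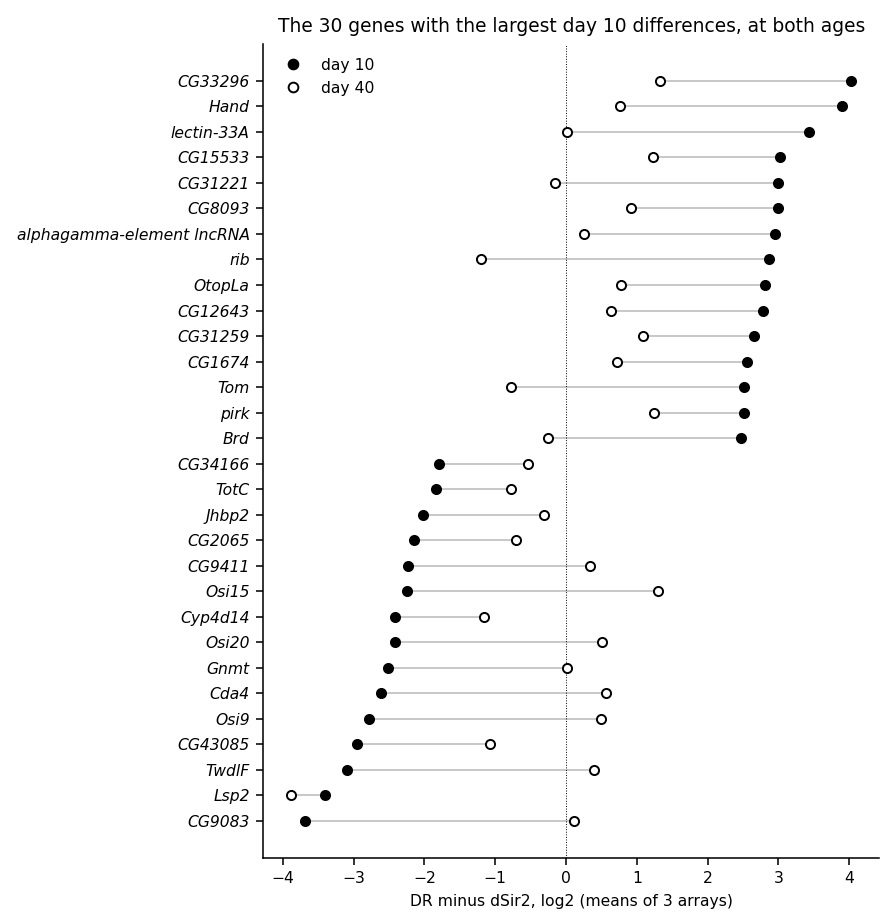
DR minus dSir2 (x axis, log2, means of 3 arrays) at day 10 (filled) and day 40 (open) for the 15 genes highest and the 15 lowest in DR at day 10. Lsp2 is near -3.41 and -3.88 at the 2 ages, and rib (2.87 and -1.2) and Osi15 (-2.25 and 1.30) change side.

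The change with age was tested as an interaction over 12 arrays. It was called for 280 of 10086 genes (2.78%), in 154 with a larger value at day 10 and in 126 with a smaller one, and 152 of the 280 were also called at day 10. The test reuses the day 10 arrays that gave the day 10 calls and most of the named genes. Among these genes wider gaps at day 10 are therefore favoured by the choice. The gene rib had the widest gap among the named genes, 2.87 at day 10 and -1.2 at day 40 (interaction 4.07, adjusted p = 0.0275). PPO1 differed by 2.26 and 0.04 (interaction 2.22, adjusted p = 0.00412), BomS6 by 1.73 and 0.03 and nub by 1.90 and 0.26. In the other direction, Jhbp2 differed by -2.02 and -0.31 and per by -1.05 and 0.58. For CG9083 and the 5 called Osiris genes the interaction did not pass, with adjusted p of 0.142 for CG9083 and 0.294 for Osi15.

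Diet alone was measured in other arrays, in Canton-S flies, where DR was compared with its own control at day 10. There 17.9% of genes were higher in DR and 17.7% were lower. Of the 825 genes higher in DR than in dSir2, 605 (73.3%) were among the genes higher in Canton-S DR, which is 35.1% of those, and 25 were among the lower. Of the 305 lower genes 166 (54.4%) were lower in Canton-S DR, 9.7% of those, and 9 were higher. These comparisons have no arrays in common. Lsp2 and Gnmt fell by 8.71 and 6.15 in Canton-S DR, and pirk rose by 1.97, CG6870 by 2.28, Act88F by 3.14 and Kr-h1 by 1.34. In contrast, rib was called lower there (difference -0.93, limma adjusted p = 0.015). CG8997 and CG7953 differed by -0.32 and -0.44 and were not called. Of the 20 muscle genes 17 were higher in Canton-S DR, as were 13 of the immune peptide genes and 16 of the peptidase genes. Of the hemocyte genes 2 were higher and 2 lower, with a median of 0.08. NimC1 had low means there, 3.26 in DR and 3.56 in control against 6.31 in yw/w1118 control arrays, and differed by -0.30, Hand differed by 0.77 and lectin-33A by -1.10, none of them called, and PPO1 was lower by 1.87 (adjusted p = 0.0364). Eggshell genes had no call and a median of -0.05 in Canton-S DR, while 19 of the 21 DNA replication genes were lower.

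RU486 was given to other flies in the DN-Dmp53 cross, where it induces another transgene in neurons, so that RU486 and the transgene cannot be told apart there either. Against its own control 1.18% of genes were higher and 1.12% were lower at day 10. Of the 824 genes higher in DR than in dSir2 that were tested there, 3 were lower with RU486 and 52 (6.31%, or 46.8% of the genes higher there) were higher. Of the 305 genes lower in DR, 2 were higher with RU486, Jhbp2 (2.19, adjusted p = 0.0302) among them, and 28 (9.18%, or 26.7% of the genes lower there) were lower. None of Cyp4d14, Cyp6a8, GstE3, Ugt37A2 and Ugt35C1 was called there. Their differences were -0.16, -1.44, -0.32, -0.27 and 0.07, from mean control levels without RU486 of 9.53, 10.78, 12.1, 9.83 and 10.27, against means of 9.03, 10.26, 11.96, 10.38 and 9.91 in dSir2. The genes rib and Tom rose with RU486 in the DN-Dmp53 cross by 4.03 and 3.92.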

How the data were processed

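The authors hybridised total RNA of pooled whole females to Affymetrix Drosophila 2.0 arrays and deposited log2 values, quantile normalized and summarised per probeset with GCRMA (version not given in the sources used here). GCRMA sets dim probesets to a shared floor, so that differences of dim genes are compressed. No read depth applies, and the 3 arrays of a group limit the precision. Of 18952 probesets 183 controls were left out, 402 that name several genes and 4720 with no gene entry were tested but not named, and 13544 of the 13647 naming 1 gene matched RefSeq.

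The 6 arrays were fitted with limma 3.58.1 (R 4.3.3, lmFit and eBayes, two-sided) with Benjamini-Hochberg adjustment over all 12592 probesets tested. Probesets at or under the 25th percentile of mean levels in both groups were left out as absent, after the study's methods. A gene was called when a probeset naming it alone passed 0.05 in adjusted p and exceeded 1.5 in fold. Its value is that of its brightest probeset over the 42 arrays, or of the called one where that is another, as then stated; 709 tested genes have several probesets. Differences are log2 DR minus dSir2, and standard errors are limma's. The study calls its replicates biological. A p-value sets the difference between group means against the spread of these arrays within groups, as moderated by limma. The day 40, interaction, Canton-S and DN-Dmp53 fits followed the same rules on their own arrays, the interaction with no minimum fold.

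Named genes are the 15 largest called differences in each direction, up to 4 called members of each list, the genes the study names and Sirt1. Most others are marked as outside this rule or as chosen after their values were seen. Members that complete the hemocyte and yolk lists, genes of the genome runs and the day 40 call carry no mark. The members and lists were chosen with earlier results of these data known. Counts used pandas 2.3.3 and numpy 2.4.6 under Python 3.11.15, plots used matplotlib 3.10.9, and the fit was tested on simulated data. Alternatives changed the scaling, absent filter, arrays in the fit, variance prior, weights, test, threshold, probeset rule and replicate block, and left out each array.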

Additional observations from a re-analysis of the deposited data

Results flagged for a closer look

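For 20 named genes the interaction test called a change in DR minus dSir2 between day 10 and day 40. Most named genes were chosen for large day 10 differences, and the test uses the same day 10 arrays. Wider gaps at day 10 are therefore favoured by the choice. The values are day 10 minus day 40 differences on the log2 scale (limma over 12 arrays, adjusted p under 0.05). The transcription factor genes rib and nub gave 4.07 and 1.64, the proton channel gene OtopLa 2.03 and the potassium channel gene Sh 1.96. In immunity PPO1 gave 2.22 and BomS6 1.70. Among germline and growth genes bol gave 2.34, grk 1.17, S6k 0.84, fs(1)Ya -0.46, PCNA -0.65 and Ns4 -0.67. The takeout family gene Jhbp2 gave -1.71, while its relatives CG8997 and CG7953 gave 0.90 and 0.99. The clock gene per gave -1.63, Cyp313a1 1.88, the fatty acid synthase gene FASN3 0.85, and the odorant-binding genes Obp57a and Obp57b 1.02 and 1.15.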

How the results depend on the processing

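The day 10 counts of genes higher and lower in DR, 825 and 305, moved most with the fold threshold and with centring on array medians. They were 459 and 170 with Welch's unequal variances, 1266 and 593 with array weights, 1315 and 1447 with no minimum fold, 383 and 64 at more than 2-fold, and 608 and 1226 with arrays centred on their medians. Leaving out each array in turn gave 416 to 897 higher and 151 to 419 lower genes. Same-numbered DR and dSir2 arrays deviated together at 0.104, -0.159 and -0.019, so that the numbers do not pair them, and with the number as a replicate block the counts were 438 and 130. The other settings stayed within 1.5 times of the counts, among them quantile normalization again with 618 and 457 and the methods' t-test with 643 and 233. At day 40, with 1 and 0 genes, the counts were 167 and 18 when the 14 groups shared 1 fit, 116 and 22 with weighted arrays and 66 and 9 by the methods' t-test, 0 and 0 with that test after Benjamini-Hochberg, with the absent filter at the 50th percentile and with the replicate block, and 0 to 3 higher and 0 lower without each array. No alternative was run for the interaction. Of 133 called genes among the 147 named, 46 were called under every setting, 118 under the 3 scalings and 73 without each array, and none changed direction. With centred arrays Akt, CG6295, Desat1, FASN3, GstD10, Hr39, Irc, Nopp140 and pum were not called. The cause of these changes was not tested. Levels near the floor bound no fold, and this held for the dSir2 arrays in 24 of the higher genes and the DR arrays in 3 of the lower.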

Other observations

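Probesets without a gene name here were tested in the same fit. Of 1791 with no gene entry, 99 were higher in DR and 17 lower, and of 309 that name several genes, 26 were higher and 4 lower.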
